A study of Arabidopsis thaliana with 24 samples.

Results

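The Kunitz and PR-6 families are small plant proteins, many of which inhibit serine proteases, digestive ones among them. From these families 5 genes of Arabidopsis thaliana were chosen. The Kunitz genes were AT1G73260 (KTI1, Kunitz trypsin inhibitor 1), AT1G17860 and AT1G72290 (the water-soluble chlorophyll protein WSCP). The PR-6 genes were AT5G43580 (UPI, unusual serine protease inhibitor) and AT2G38870. They are 5 of the 32833 genes in the count table. Of these 5, AT1G72290 had 0 counts in each of the 24 libraries, and the other 4 passed the filter on low counts. RNA came from rosettes of wild-type (WT) plants. Primed plants grew from seed treated with methyl jasmonate, and not-primed plants from seed treated with water (H2O). Rosettes of each kind were taken after 24 hours with caterpillars (Pieris brassicae), after 24 hours with spider mites (Tetranychus urticae), or without pests as control. Each of these 6 groups had 4 libraries, labelled as biological replicates. Whether a replicate held 1 plant or several is not stated, and the p-values then cover only the spread among these libraries, which may be technical.

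Protease inhibitors bind the active site of a protease and stop it from cutting protein. In leaves many of them are made after wounding, when the hormone jasmonate builds up, and herbivores that swallow them digest leaf protein less well. Kunitz inhibitors are larger proteins held together by disulfide bonds, and PR-6 (potato inhibitor I) proteins are short and have few or none. Caterpillars rely largely on serine proteases in the gut, and spider mites largely on cysteine proteases. The series addresses the trade-off between defence and growth in primed plants and their response to each pest.

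Library totals were between 15852109 and 27986799 counts, and 3 counts, the limit that a count of 0 allows, came to 0.107 to 0.188 CPM (the count scaled to a normalized library size of 1e6) in a library. Such limits cover counting error only. The leaf marker RBCS1A (AT1G67090), a small subunit of Rubisco, read 8616 CPM or more in each library, and it fell under both pests by the test (edgeR adjusted p between 2.87e-09 and 0.0429; 10839 to 13445 CPM in caterpillar libraries, 8616 to 9911 CPM in mite libraries and 12745 to 16568 CPM in control libraries). In not-primed plants its fall under caterpillars did not pass the test without replicates 1 and 2 of the controls (adjusted p = 0.261). The other leaf marker, CAB1 (AT1G29930), a chlorophyll-binding protein, read 10848 to 17487 CPM. It fell under mites, by 0.23 on the log2 scale in primed and by 0.27 in not-primed plants (edgeR adjusted p = 0.00385 and 0.000642), and was not called under caterpillars (0.16 in primed and 0.07 in not-primed plants). The root markers COBL9 (AT5G49270), RHD6 (AT1G66470) and BGLU21 (AT1G66270) stayed at or under 0.255 CPM, and PYK10 (AT3G09260), which rosettes also express, read 164 to 733 CPM. The floral genes AP3 (AT3G54340) and AG (AT4G18960) read 0.147 to 1.47 CPM and 0.465 to 2.06 CPM, and the seed storage genes CRA1 (AT5G44120) and SESA1 (AT4G27140) read at most 0.277 CPM and 1.93 CPM. PYK10 rose in all 4 comparisons of a pest with its control. SESA1 read 0.0942 to 1.93 CPM in pest libraries and at most 0.0469 CPM in controls. It could pass the filter on low counts only through pest libraries, so no test is given for it. AP3 fell under mites in primed plants, with a log2 fold change of -1.25 (edgeR adjusted p = 0.0486), and AG was not called against controls. The part of these markers in the results was not tested. Among the not-primed controls, replicates 1 and 2 stood apart from replicates 3 and 4. VSP2 (AT5G24770), a storage protein gene induced by jasmonate, read 145, 42.5, 475 and 638 CPM in replicates 1 to 4. Comparisons with the not-primed controls were refitted without replicates 1 and 2 and without replicates 3 and 4. These pairs were drawn from the same data, so for a gene split in the same way such a refit describes the split and is no test.

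The gene models and the bases upstream of them were taken from RefSeq's annotation of assembly TAIR10.1. AT1G17860 lies at chr1:6149178-6150038 on the plus strand, with 1 exon and 591 coding bases, and its annotated transcript begins 123 bases inside the gene record. KTI1 lies at chr1:27547098-27548282 on the minus strand, with 1 exon and 648 coding bases. AT1G72290 lies at chr1:27215787-27216857 on the plus strand, also with 1 exon and 648 coding bases. AT2G38870 lies at chr2:16236257-16237280 on the minus strand, with 2 exons and 213 coding bases, and UPI at chr5:17507801-17508752 on the minus strand, with 2 exons and 300 coding bases. The 200 bases before the gene start are shown for AT1G17860 and AT2G38870, the members that rose under pests, and for KTI1, which was measured in each library without a call. Capitals mark the W-box core TTGAC, the core of the element that WRKY transcription factors bind, read on either strand (GTCAA where it lies on the other strand). The windows are chr1:6148978-6149177 for AT1G17860, chr2:16237281-16237480 for AT2G38870 and chr1:27548283-27548482 for KTI1, each written 5′ to 3′ on the gene's own strand.
AT1G17860: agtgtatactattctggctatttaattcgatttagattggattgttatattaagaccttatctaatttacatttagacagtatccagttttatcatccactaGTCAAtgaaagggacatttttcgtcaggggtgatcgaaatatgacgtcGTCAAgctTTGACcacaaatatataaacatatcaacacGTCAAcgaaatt
AT2G38870: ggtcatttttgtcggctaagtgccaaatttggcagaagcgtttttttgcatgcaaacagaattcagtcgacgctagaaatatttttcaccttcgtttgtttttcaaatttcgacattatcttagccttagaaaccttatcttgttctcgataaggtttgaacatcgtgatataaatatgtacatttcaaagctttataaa
KTI1: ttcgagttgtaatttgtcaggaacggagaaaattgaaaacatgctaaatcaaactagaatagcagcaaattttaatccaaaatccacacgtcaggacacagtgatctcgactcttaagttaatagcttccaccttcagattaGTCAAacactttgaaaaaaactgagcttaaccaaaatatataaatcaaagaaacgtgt
The window of AT1G17860 held 4 W-box cores, which began 98, 50, 42 and 12 bases before the gene start. That of KTI1 held 1, which began 58 bases before the start, and those of AT2G38870, UPI and AT1G72290 held 0. Of the 27438 windows of this length before genes, 38.7% held at least 1 W-box core on either strand, and 0.324% held at least 4. The G-box CACGTG, which reads the same on both strands, was found in 1 member, AT1G72290, at the far end of its window, and in 5.64% of all windows. The GCC box GCCGCC was in the window of 0 of the 5 members and in 1.46% of all windows on either strand. A match describes the letters and is no evidence of binding.

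Per length of gene, the members spanned a wide range of levels. In the deposited FPKM values, which are scaled to gene length and library size, AT2G38870 averaged 80.5 FPKM over the 24 libraries and ranked 1129 of 32833 genes. AT1G17860 averaged 10.7 FPKM (rank 7904), KTI1 2.58 FPKM (rank 14975) and UPI 0.579 FPKM (rank 18834). AT1G72290, a chlorophyll-binding Kunitz protein that inhibits the plant's own cysteine protease RD21, had 0 of 505610503 counts, which allows up to 0.00594 CPM over all libraries together. The 0.471 to 6.48 FPKM of KTI1 did not overlap the 47.0 to 113 FPKM of AT2G38870.

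**Figure D1:**
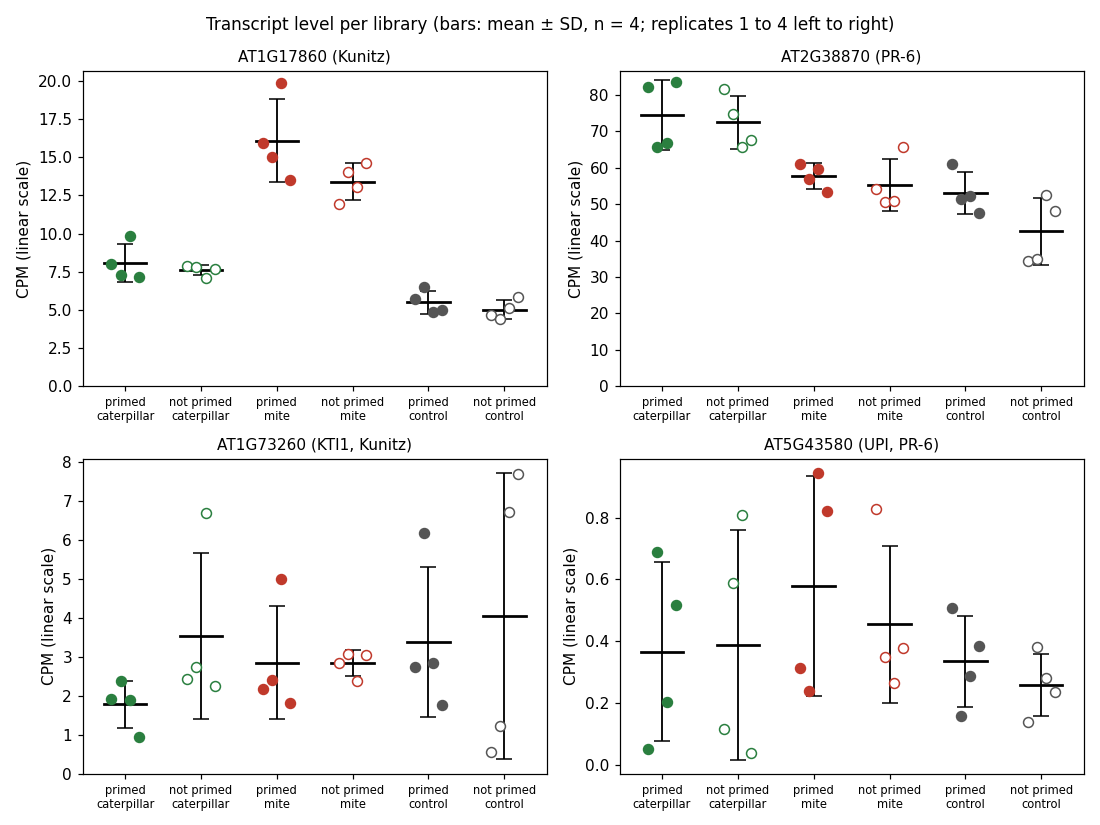
Transcript level of the 4 detected inhibitor genes in each of the 24 libraries, in CPM on a linear scale, by group; points are libraries (filled for primed, open for not primed) and bars are the mean ± SD of 4 libraries. AT1G17860 was highest in both mite groups (13.5 to 19.9 CPM in primed and 11.9 to 14.6 CPM in not-primed plants), AT2G38870 in both caterpillar groups (65.8 to 83.4 CPM and 65.7 to 81.7 CPM), and KTI1 ranged over 0.557 to 7.69 CPM within the not-primed controls.

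AT1G17860, a Kunitz inhibitor gene, was higher under both pests than in controls, and more so under mites. In primed plants it had 15.9, 15.0, 19.9 and 13.5 CPM under mites, against 5.73, 6.49, 4.86 and 4.9965 CPM in controls. Not-primed plants had 11.9, 14.0, 13.0 and 14.6 CPM under mites, against 4.64, 4.43, 5.11 and 5.86 CPM in controls. All mite libraries lay above all control libraries of the same kind of plant, by more than the spread within either group. In whole rosettes, more cells that express a gene and more RNA per cell cannot be told apart. The log2 fold change was 1.54 ± 0.13 (SE, n = 4 libraries per group) in primed plants, 2.91-fold, with an adjusted p of 9.19e-10 in edgeR's quasi-likelihood test. In not-primed plants it was 1.42 ± 0.13, 2.68-fold, with an adjusted p of 2.79e-09 in the same test. Leaving out any 1 library kept these values between 1.46 and 1.66 in primed and between 1.36 and 1.51 in not-primed plants. Without replicates 1 and 2 of the not-primed controls the change in not-primed plants was 1.28 (adjusted p = 7.98e-07), and without replicates 3 and 4 it was 1.56 (adjusted p = 1.66e-08).

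Under caterpillars AT1G17860 rose less. Primed plants had 7.98, 7.26, 9.86 and 7.16 CPM under caterpillars, and not-primed plants had 7.85, 7.80, 7.10 and 7.68 CPM. Each of these 8 libraries lay above each control of its kind. The log2 fold change against controls was 0.55 ± 0.13 in primed plants (edgeR adjusted p = 0.00346) and 0.60 ± 0.13 in not-primed plants (edgeR adjusted p = 0.00126). Without replicates 1 and 2 of the not-primed controls, the value in not-primed plants was 0.47 and no longer passed the test (adjusted p = 0.0610), and without replicates 3 and 4 it was 0.72 (adjusted p = 0.00141). Set directly against mites, AT1G17860 was lower under caterpillars, with a log2 fold change of -0.99 ± 0.12 in primed plants (edgeR adjusted p = 2.94e-06) and -0.82 ± 0.12 in not-primed plants (edgeR adjusted p = 3.23e-05). The caterpillar and mite libraries did not overlap in either kind of plant.

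Reads of AT1G17860 may include reads of genes on the opposite strand, because the use of strand in counting is not given in the sources used here. The noncoding RNA gene AT1G05347 covers 734 bases of AT1G17860 (85.2% of it) and had 0 to 18 counts per library, against 91 to 421 for AT1G17860. The gene EGY3 (AT1G17870), which encodes a chloroplast protein related to proteases, covers 100 bases (11.6%) and had 78 to 1047 counts per library. EGY3 moved the opposite way under mites, with a log2 fold change of -3.44 ± 0.17 in primed plants (edgeR adjusted p = 5.59e-13) and -2.35 ± 0.16 in not-primed plants (edgeR adjusted p = 3.67e-11). It also fell under caterpillars, by 2.32 on the log2 scale in primed plants (edgeR adjusted p = 6.35e-10) and by 1.70 in not-primed plants (edgeR adjusted p = 2.66e-08), and it stayed called in not-primed plants without either pair of the controls.

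AT2G38870, the most abundant member and a PR-6 gene, was highest under caterpillars. In primed plants it had 82.2, 65.8, 66.7 and 83.4 CPM under caterpillars, against 61.1, 51.4, 52.3 and 47.5 CPM in controls. Not-primed plants had 81.7, 74.9, 65.7 and 67.6 CPM under caterpillars, against 34.3, 35.0, 52.5 and 48.2 CPM in controls. The caterpillar libraries lay above the controls without overlap in both kinds of plant. The log2 fold change was 0.49 ± 0.12 in primed plants (1.40-fold, edgeR adjusted p = 0.00354) and 0.77 ± 0.12 in not-primed plants (1.70-fold, edgeR adjusted p = 3.15e-05). In the not-primed controls, replicates 1 and 2 were the low ones, and without them the log2 fold change was 0.52 with an adjusted p of 0.00353. Without replicates 3 and 4 it was 1.03 with an adjusted p of 2.89e-07.

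Under mites AT2G38870 moved less than under caterpillars. Primed plants had 61.0, 56.8, 59.8 and 53.2 CPM under mites, a log2 fold change of 0.12 ± 0.12 from controls that did not pass the test (edgeR adjusted p = 0.444). Not-primed plants had 54.0, 50.5, 50.8 and 65.6 CPM under mites, a log2 fold change of 0.38 ± 0.12 that passed it (edgeR adjusted p = 0.0105), although the groups overlapped. The interaction that compares these changes did not pass the test, at -0.26 ± 0.17 (edgeR adjusted p = 0.505). The not-primed call rested on single libraries: it was lost without replicate 4 of the not-primed mite group (0.29, adjusted p = 0.0543) and without replicate 1 (0.29, adjusted p = 0.0588) or replicate 2 (0.29, adjusted p = 0.0561) of the not-primed controls. Without both of these controls it came to 0.12 with an adjusted p of 0.438.

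Set directly against mites, AT2G38870 was higher under caterpillars, by 0.37 ± 0.12 on the log2 scale in primed plants (edgeR adjusted p = 0.0258) and by 0.39 ± 0.12 in not-primed plants (edgeR adjusted p = 0.0171). The groups did not overlap in either kind of plant, since the lowest caterpillar library read 65.8 CPM against a highest mite library of 61.0 CPM in primed plants, and 65.7 CPM against 65.6 CPM in not-primed plants. In primed plants the call was lost without replicate 2 or 4 of the mite group (adjusted p = 0.0608 and 0.0910) and without replicate 1 or 4 of the caterpillar group (adjusted p = 0.0784 and 0.0891). In not-primed plants it was lost without replicate 1, 2 or 3 of the mite group (adjusted p = 0.05003, 0.0705 and 0.0691) and without replicate 1 of the caterpillar group (adjusted p = 0.0578). The mean of AT2G38870 was thus higher under caterpillars than under mites, and that of AT1G17860 lower.

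**Figure D2:**
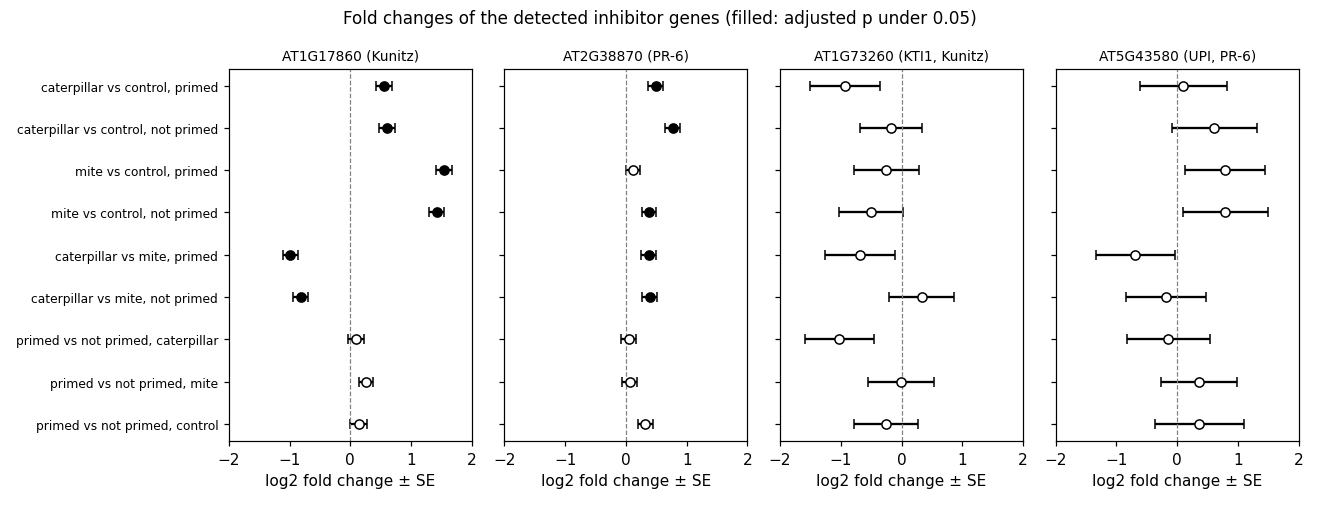
Log2 fold change with its SE (horizontal bars, n = 4 libraries per group) of the 4 detected inhibitor genes in 9 comparisons between groups; filled points had an edgeR adjusted p under 0.05. AT1G17860 lay at 1.54 and 1.42 for mites against control and at -0.99 and -0.82 for caterpillars against mites, AT2G38870 lay above 0 for caterpillars against mites, and the intervals of KTI1 and UPI were several times wider.

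KTI1, a Kunitz trypsin inhibitor known in Arabidopsis for restraining cell death during infection, passed the test in 0 of the 12 comparisons. In primed plants it had 1.93, 2.38, 1.89 and 0.942 CPM under caterpillars, 2.19, 2.42, 5.01 and 1.82 CPM under mites, and 2.74, 6.17, 2.84 and 1.76 CPM in controls. Not-primed plants had 2.44, 2.75, 6.70 and 2.27 CPM under caterpillars, 2.85, 3.08, 2.39 and 3.06 CPM under mites, and 0.557, 1.24, 6.70 and 7.69 CPM in controls. The not-primed controls thus spanned 13.8-fold, with replicates 1 and 2 low and replicates 3 and 4 high. The not-primed controls had both the lowest and the highest KTI1 level of the 24 libraries. The log2 fold change against controls in not-primed plants was -0.17 ± 0.52 under caterpillars (edgeR adjusted p = 0.847) and -0.51 ± 0.53 under mites (edgeR adjusted p = 0.449).

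The direction of KTI1's changes against the not-primed controls went with which of these controls were used. KTI1 itself was split between the pairs, so leaving out its low or its high controls moved the value in a direction fixed beforehand. The p-values of these refits are therefore no test. Without replicates 3 and 4 of these controls, the log2 fold change was 1.97 under caterpillars (edgeR adjusted p = 0.00671), 1.66 under mites (edgeR adjusted p = 0.0150) and 1.87 for primed against not-primed controls (edgeR adjusted p = 0.0156). Without replicates 1 and 2, the change under mites was -1.34 (edgeR adjusted p = 0.0111). In primed plants, where the not-primed controls do not enter the difference, the log2 fold change of KTI1 was -0.93 ± 0.57 under caterpillars (edgeR adjusted p = 0.261) and -0.25 ± 0.54 under mites (edgeR adjusted p = 0.740). Priming gave -1.02 ± 0.56 under caterpillars (edgeR adjusted p = 0.308).

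UPI, a PR-6 gene whose loss is known to make Arabidopsis more susceptible to a fungus and to a caterpillar, was close to the limit of detection, with 1 to 23 counts per library and 204 in all. In primed plants the 4 libraries summed to 27 counts under caterpillars, 55 under mites and 26 in controls. In not-primed plants they summed to 37, 37 and 22 counts. Single libraries ranged from 0.0384 CPM in a not-primed caterpillar library to 0.945 CPM in a primed mite library, and each group overlapped its neighbour in the order of means. UPI passed the test in 0 of the 12 comparisons. Its log2 fold change under mites was 0.79 ± 0.66 in primed plants (edgeR adjusted p = 0.351) and 0.79 ± 0.70 in not-primed plants (edgeR adjusted p = 0.362).

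Counted over the members that passed the filter on low counts, 1 of 4 was higher under mites in primed plants and 2 of 4 in not-primed plants. There, 45.7% and 51.4% of the 20038 genes tested were called in either direction, with 4463 and 5310 genes higher. Under caterpillars 2 of 4 rose in primed and 2 of 4 in not-primed plants. In these comparisons 23.9% and 27.8% of all genes were called in either direction, with 2429 and 2839 genes higher. The median log2 fold change of the 4 members was 0.45 in primed and 0.59 in not-primed plants under mites, and 0.30 and 0.61 under caterpillars, beside medians over all genes tested of -0.0205, 0.0118, -0.0121 and -0.00468 in the same order. Between the pests, 1 member was higher and 1 lower under caterpillars in each kind of plant, where 22% of all genes were called in primed and 25.7% in not-primed plants. Mite and caterpillar comparisons of 1 kind of plant share their 4 control libraries.

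Priming changed no member by the test. Beside 0 of 4 members, 8.15% of all genes were called between primed and not-primed plants under caterpillars, 6.36% under mites and 14.8% in controls. At an unadjusted p under 0.05, edgeR gave 0 members under caterpillars, 1 under mites and 1 in controls, and DESeq2 called 0 in each. These were AT1G17860 under mites, with a log2 fold change of 0.26 ± 0.12 (edgeR adjusted p = 0.252), and AT2G38870 in controls, with 0.32 ± 0.12 (edgeR adjusted p = 0.0776). The difference of AT2G38870 in controls was 0.41 (edgeR adjusted p = 0.0188) without replicate 3 of the not-primed controls. It was 0.58 (edgeR adjusted p = 0.000819) without replicates 3 and 4, and 0.08 (edgeR adjusted p = 0.786) without replicates 1 and 2. AT2G38870 was itself split between these controls, so leaving out its high or low ones moved the value in a direction fixed beforehand. These refits describe the split and are no test. In the other comparisons of priming, the log2 fold changes of AT1G17860 and AT2G38870 lay between 0.04 ± 0.12 and 0.14 ± 0.14.

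Whether priming altered the response to a pest was read from the interactions. The response to mites differed in 0 of 4 members and 1.1% of all genes, the response to caterpillars in 0 of 4 members and 0% of all genes, and the difference between the pests in 0 of 4 members and 0.00998% of all genes. At an unadjusted p under 0.05 edgeR also gave 0 members in each of the 3, beside 3030, 1445 and 1827 genes, and DESeq2 called 0 members in each. The mite interaction of AT1G17860 was 0.12 ± 0.18 (edgeR adjusted p = 0.824), and the caterpillar interaction of AT2G38870 was -0.28 ± 0.17 (edgeR adjusted p = 0.768). Without replicates 3 and 4 of the not-primed controls, the mite interaction of AT2G38870 was -0.52 (edgeR adjusted p = 0.0270) and the caterpillar interaction of KTI1 -2.89 (edgeR adjusted p = 0.0248). Both genes differed between the pairs of these controls, so these values describe the split and are no test.

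The order of the group means differed between members. For AT1G17860 it ran primed mite (16.1 ± 2.72 CPM), not-primed mite (13.4 ± 1.19), primed caterpillar (8.06 ± 1.25), not-primed caterpillar (7.61 ± 0.344), primed control (5.52 ± 0.750) and not-primed control (5.01 ± 0.636 CPM; SD, n = 4 each). Neighbours in that order overlapped where they differed in priming alone and were apart where they differed in infestation. For AT2G38870 the caterpillar groups led (74.5 ± 9.56 CPM primed and 72.5 ± 7.33 CPM not primed), and the 4 groups below them overlapped from one to the next. For KTI1, 5 of the 6 groups overlapped from one to the next, and the group with the lowest mean, primed caterpillar (1.79 ± 0.604 CPM), had its highest library at 2.378 CPM, just below the lowest not-primed mite library at 2.387 CPM.

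Across the 24 libraries the members were weakly correlated, with Pearson's r of log2 CPM between -0.03 (UPI and AT2G38870) and 0.29 (AT1G17860 and AT2G38870). The r values of UPI carry the counting error of its low counts. AT1G17860 and AT2G38870 were both called higher under caterpillars in each kind of plant despite their low r. These and the following r values are descriptions, since the libraries share the infestation groups. The genes most like AT1G17860 among 20037 others were NADP-ME2 (AT5G11670), a malic enzyme (r = 0.96), AT1G54020 (r = 0.96) and NUDT7 (AT4G12720), a Nudix hydrolase (r = 0.96). For AT2G38870 they were AT1G66760 (r = 0.91), AGT3 (AT2G38400), an aminotransferase gene (r = 0.90), and ChlAKR (AT2G37770), an aldo-keto reductase (r = 0.89). For KTI1 they were CYP71A13 (AT2G30770), an enzyme of camalexin synthesis (r = 0.83), the beta-glucosidase gene BGLU31 (AT5G24540; r = 0.81) and AT2G45220 (r = 0.78). For UPI, at its low counts, the closest were RLP28 (AT2G33080; r = 0.72), FUS9 (AT3G13550; r = 0.65) and UMAMIT40 (AT5G40240; r = 0.64).

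Relatives of the members from the same families were read beside them. Of 4 other Kunitz genes, 2 were tested. AT1G73325, which lies 19136 bases from KTI1 with 6 coding genes between them, rose in all 4 comparisons of a pest with its control. In primed plants it averaged 61.3 CPM under caterpillars, 85.5 CPM under mites and 6.48 CPM in controls, log2 fold changes of 3.25 ± 0.38 and 3.73 ± 0.38 (edgeR adjusted p = 6.69e-07 and 1.89e-08). The averages in not-primed plants were 92.6, 112 and 12.04 CPM, log2 fold changes of 2.94 ± 0.35 and 3.21 ± 0.35 (edgeR adjusted p = 8.83e-07 and 3.85e-08). Its not-primed controls were split like those of KTI1, at 6.73, 1.71, 16.1 and 23.6 CPM, yet each pest library lay above each control. Without replicates 1 and 2 of these controls the log2 fold changes were 2.22 under caterpillars and 2.48 under mites, and without replicates 3 and 4 they were 4.41 and 4.71, each with a call. DR4 (AT1G73330), a drought-repressed Kunitz gene, rose under caterpillars in primed plants (0.97 ± 0.27, edgeR adjusted p = 0.00959) and under mites in not-primed plants (0.70 ± 0.26, edgeR adjusted p = 0.0285), in both with overlapping groups. The mite call was lost without replicates 1 and 2 of the controls (0.44, adjusted p = 0.268).

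Of 4 other PR-6 genes, 3 had 0 counts in each library. The other one, AT5G43570, lies 159 bases from UPI on the opposite strand, and was read mainly under caterpillars. In primed plants it had 10, 4, 6 and 16 counts under caterpillars, 6, 4, 0 and 0 under mites, and 0 in each control. Not-primed plants had 12, 18, 28 and 20 counts under caterpillars, 3, 4, 0 and 1 under mites, and 0, 0, 2 and 0 in controls. Its counts reached 10 in all 4 libraries only in the not-primed caterpillar group, so it passed the filter on low counts through the group where it was high, and no test is given for it. Caterpillar and control libraries did not overlap in either kind of plant. Against the limit of 3 counts over the 4 primed controls, it was at least 12.3-fold higher under caterpillars and at least 2.77-fold higher under mites in primed plants, where 2 of the 4 mite libraries were at 0 like the controls.

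Inhibitors of other families were counted in the same way. All 5 tested genes of the mustard trypsin inhibitor family, small cysteine-rich inhibitors of the Brassicaceae, rose in each of the 4 comparisons with controls. Set directly against mites, 3 of 5 were lower under caterpillars in each kind of plant. Of all genes tested, 22% in primed and 25.7% in not-primed plants were called between the pests, with 2300 and 2394 lower under caterpillars. TI1 (AT2G43510) was the extreme, at 19.8 CPM under caterpillars, 165 CPM under mites and 4.35 CPM in controls in primed plants, and at 25.2, 164 and 5.63 CPM in not-primed plants. Its log2 fold change under mites was 5.25 ± 0.33 in primed plants (edgeR adjusted p = 8.24e-12) and 4.87 ± 0.32 in not-primed plants (edgeR adjusted p = 1.80e-11). The not-primed value was 4.19 without replicates 1 and 2 of the not-primed controls, and without replicates 3 and 4 it was 6.13. All 5 genes stayed called under each pest in both refits. Of 7 cystatins, inhibitors of cysteine proteases, 3 rose under caterpillars in primed and 5 in not-primed plants, and 5 rose under mites in each. Of the 20038 genes tested, 2429 and 2839 rose under caterpillars in primed and not-primed plants, and 4463 and 5310 under mites. Called in either direction were 23.9% and 27.8% under caterpillars and 45.7% and 51.4% under mites, in the same order. In not-primed plants 1 of the 7 cystatins was called under caterpillars and 5 under mites without replicates 1 and 2 of the controls. Of 11 serpins, 2 were tested, and SERPIN1 (AT1G47710), another protease inhibitor, rose in all 4 comparisons, by 0.34 to 0.67 on the log2 scale. The other, AT2G26390, was called only under mites in not-primed plants, at 2.67. It was not called under caterpillars in not-primed plants (1.70) or under either pest in primed plants. Its not-primed values went with the controls used. Without replicates 1 and 2 of the controls they were 4.24 under mites and 3.28 under caterpillars, both with a call. Without replicates 3 and 4 they were 1.93 with a call under mites and 0.94 without a call under caterpillars. The plant's own proteases that such inhibitors can bind include RD21A (AT1G47128). Of 9 tested protease genes, 4 rose under caterpillars and 6 under mites in primed plants, and 5 and 7 in not-primed plants, beside the same numbers and shares of all genes. These 5 and 7 came to 1 and 6 without replicates 1 and 2 of the not-primed controls, and without replicates 3 and 4 to 6 and 8. Over all genes tested, the 5574 called under caterpillars in not-primed plants became 2495 without replicates 1 and 2. Under mites in not-primed plants, 10298 became 7587 to 10329 over the refits without a pair or with another method. The lower counts of cystatins and proteases thus stand beside a fall over all genes. RD19 (AT4G39090), a cysteine protease gene, was the only one of the 9 that priming raised in all 3 infestation states, by 0.52 under caterpillars, 0.43 under mites and 0.56 in controls on the log2 scale (edgeR adjusted p = 0.000150, 0.000895 and 3.57e-05).

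**Figure D3:**
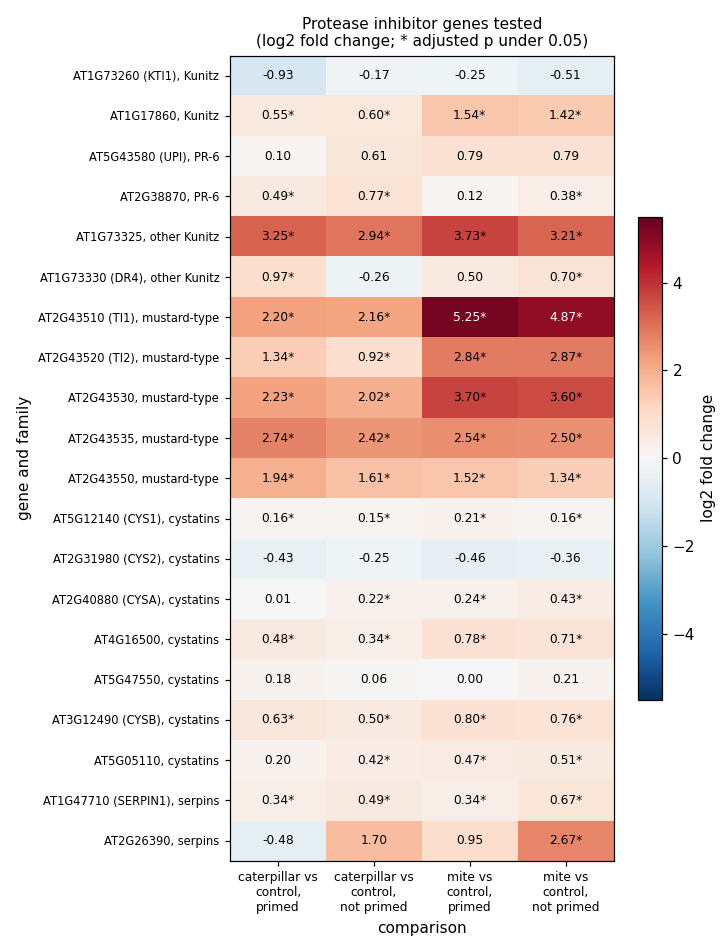
Log2 fold change of 20 protease inhibitor genes in the 4 comparisons of a pest with its control, as colour and number; a star marks an edgeR adjusted p under 0.05. AT5G43570 is left out because its primed controls were at 0. The 5 mustard-type genes were called in each column, with TI1 at 5.25 and 4.87 under mites, AT1G17860 was called in each, and KTI1 and UPI in none.

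The hormone-responsive genes VSP2, MYC2 (AT1G32640), ORA59 (AT1G06160), ERF1 (AT3G23240), PDF1.2 (AT5G44420), PR1 (AT2G14610) and WRKY33 (AT2G38470) were read beside the members. ERF1 had at most 5 counts and PDF1.2 at most 43 counts in a control library. They could pass the filter on low counts only through pest libraries, so no test is given for them. Under mites VSP2, MYC2, ORA59, PR1 and WRKY33 rose in both kinds of plant. Under caterpillars VSP2, MYC2, ORA59 and WRKY33 rose in not-primed plants, and PR1 was not called. In primed plants 4 of 7 were higher under caterpillars, a count that includes ERF1 and PDF1.2 among the 7 and only describes. Fewer of all genes were also called under caterpillars (23.9% and 27.8%, with 2429 and 2839 higher) than under mites (45.7% and 51.4%, with 4463 and 5310 higher). Without replicates 1 and 2 of the controls, VSP2 and MYC2 were called under caterpillars in not-primed plants. Under mites VSP2, MYC2, ORA59 and WRKY33 were called in that refit. Over all genes, the 5574 called under caterpillars in not-primed plants became 2495 in that refit. Set directly against mites, ORA59, PR1 and WRKY33 were lower under caterpillars in primed plants, and PR1 alone in not-primed plants. Of all genes, 22% and 25.7% were called in these comparisons, with 2300 and 2394 genes lower. VSP2 and MYC2 were called in neither, with log2 fold changes of 0.27 and 0.02 in primed and -0.09 and -0.14 in not-primed plants.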

How the data were processed

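The authors deposited raw counts per gene for 24 libraries, with no normalization, and FPKM values per library, both per the file headers. Reads were aligned with HISAT2 to TAIR10, per the submitters' processing notes; the sources used here name no aligner version, counting tool or strand setting. The names of replicates were taken from the labels, and no libraries held identical values. Counts were tested in R 4.3.3 with edgeR 4.0.16 (TMM, filterByExpr by group, quasi-likelihood fit of 6 group means over 24 libraries, 2-sided, Benjamini-Hochberg over 20038 genes, threshold 0.05). The SE was taken back from the test (size of the log2 change divided by the root of F). CPM uses the TMM library size. FPKM was used for levels between genes and, as log2(FPKM + 1) in limma 3.58.1, as an alternative; DESeq2 1.42.0 was another. The procedure was tested on simulated counts. Symbols, gene models and upstream sequence came from RefSeq TAIR10.1, whose table matched 32548 of 32833 identifiers (99.1%). Members and lists were chosen with earlier results of these data known. The named genes are the members, the genes of fixed lists with the greatest called changes, and the 3 genes most correlated with each member. Library totals of 15852109 to 27986799 counts limit the precision of genes with few counts, such as UPI. The pairs of not-primed controls were drawn from these data, and refits of the other lists without a pair were chosen after seeing the data.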

Additional observations from a re-analysis of the deposited data

Results flagged for a closer look

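KTI1 in the not-primed caterpillar group was set apart by 1 library. Replicate 3 read 6.70 CPM, against 2.27 to 2.75 CPM in the other 3, and its gap to the nearest of them took up 0.892 of the group's range. It was the only one of 24 combinations of member and group with a library this far from the rest, and chance alone flags about 1 in 20. In the same library AT1G73325 was the lowest of its group, at 64.5 CPM.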

How the results depend on the processing

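Of 904 refits of the members' 48 log2 fold changes under other settings, 881 left the call as it was, 15 lost it, 5 gained it and 3 turned the direction with a call; in 69 of the 881 the sign of an uncalled value turned. The mite calls of AT1G17860 held in every setting run. The 3 that turned were KTI1 without replicates 3 and 4 of the not-primed controls, at 1.66 under mites, 1.97 under caterpillars and 1.87 for primed against not-primed controls; the cause was not tested. Without that pair, 2 members were called between primed and not-primed controls, 1 in the mite interaction and 1 in the caterpillar interaction. These members, KTI1 and AT2G38870, were themselves split between the pairs, so such calls are no test. Without replicates 1 and 2, 1 member was called under caterpillars in not-primed plants. A fit on the compared groups alone called 1 member under mites in not-primed plants, where AT2G38870 had an adjusted p of 0.0501. The limma fit on log2(FPKM + 1) with no filter called 1 between caterpillars and mites in primed plants. Leaving out 1 library each gave 1 to 2 members under mites in not-primed plants, 0 to 1 between primed and not-primed controls, and 1 to 2 between caterpillars and mites in either kind of plant.

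Counts over all genes moved by more than 1.5 times in 6 comparisons. Under caterpillars in not-primed plants, 5574 genes were called and 2495 without replicates 1 and 2 of the controls. Between primed and not-primed controls, 2962 became 1380 without that pair, 4578 without replicates 3 and 4, and 1846 without replicate 1. Between primed and not-primed plants under caterpillars, 1634 became 1085 without primed replicate 4. The mite interaction had 221 genes, and 691 with DESeq2, 135 with limma without a filter, 114 and 2087 without either pair, and 68 to 632 without 1 library. The caterpillar interaction had 0, and 10 with DESeq2, 1 with no filter, 2 with limma without a filter, 9 and 487 without either pair, and up to 2 without 1 library. The interaction between the pests had 2, and 45 with DESeq2, 4 or 5 with limma, and 0 to 11 without 1 library.

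Replicate numbers were shared by the groups, and the labels state no pairing. Deviations of same-numbered libraries had a mean r of 0.00802 (-0.175 to 0.200 over 60 pairs). Those of other numbers had a mean r of -0.00269 (-0.197 to 0.179 over 180 pairs). Of 24 libraries, 9 correlated best with one of their own number. These values are a description and cannot exclude a batch shared by number. With a replicate block, 2 members were called under mites in not-primed plants and 1 in primed plants, 2 under caterpillars in each, and 4 genes in the interaction between the pests; no count of members changed. On the gene's strand alone, the window of AT1G17860 held 1 W-box core, that of KTI1 held 0, and 21.3% of all windows held at least 1.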
